A study of Mus musculus with 18 samples.

Results

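Cdkn1a, Gadd45b and Trp53inp1 encode proteins that slow or stop cell division after stress. They were followed in mouse cerebral cortex after sleep deprivation and in cultured cortical cells after excitation. The members are the probe sets that the platform annotation assigns to 1 of these symbols alone. They are 3 of the 14807 genes with a single symbol, and each had 1 probe set. They were selected on their log2 differences in the comparisons below, with earlier results of these arrays known, so their values are a description. No p-value of theirs is given, and where a gene is said to lie past or short of the threshold of limma's fit, this describes the same values and supports nothing.

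Cdkn1a encodes p21, an inhibitor of the cyclin-dependent kinases that drive cells through G1, and is a classical target of the transcription factor p53. Gadd45b encodes a small stress-induced protein that binds kinases upstream of p38 and JNK, and in mouse neurons it is an activity-induced gene linked to DNA demethylation. Trp53inp1 encodes a p53-inducible nuclear protein with roles in p53 signalling and in autophagy. Most neurons have left the cell cycle, and p21 and Gadd45 proteins are also known there as products of stress and activity.

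The study had 6 groups of 3 arrays. The cortex came from male C57BL/6J mice, with 9 animals in each group and 3 of them pooled per array. The mice were sleep deprived for 6 h, sleep deprived for 6 h and then left to recover, or undisturbed home-cage controls. The source labels give 18 h of recovery and the treatment protocol gives 24 h. The design text places that sampling on the day after, at the clock time when deprivation had started. The age of the mice is not given in the labels. The cultures were 9 dishes of 3 preparations of dissociated C57BL/6J cortex, taken from newborn pups or from embryos of day 16 to 18. The dishes were collected 3 h after stimulation with a mixture of excitatory neurotransmitters, 24 h after that stimulation, or 3 h after a sham stimulation with water. No sham dish of 24 h was analysed here. The signal is a log2 value on which a difference of 1 is a factor of 2. The labels do not say that the cortex pools or dishes of a group were independent experiments, so errors measure the spread between pools or dishes alone.

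The labelled tissues were set against cell type markers. The mean log2 signal of 9 neuron markers was 11.94 to 12.34 on the 9 culture arrays and 11.85 to 11.92 on the 9 cortex arrays. Markers of mature oligodendrocytes were lower in the cultures, at 6.23 to 6.84 in culture against 9.84 to 10.1 in cortex. Those of microglia (5.42 to 5.87 in culture, 7.87 to 8.02 in cortex) and of endothelial cells (4.97 to 5.13 in culture, 7.56 to 7.7 in cortex) were lower too. Markers of dividing cells were higher there, at 7.99 to 8.88 in culture against 5.0 to 5.08 in cortex. In bulk RNA, a change in the number of cells of a type and a change in RNA per cell cannot be told apart. Arrays of 1 group correlated at 0.984 to 0.998. The dishes numbered 3 had the highest astrocyte markers in each culture group: 10.19 against 9.76 and 9.78 in stimulated dishes, 11.07 against 10.29 and 9.98 at 24 h, and 10.53 against 9.94 and 9.86 in sham dishes. Dish 3 of the 24 h group also had the highest dividing-cell markers of all dishes, at 8.88 against 8.34 and 8.37 in its group. Results that rest on that dish are given with and without it, or by dish.

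In the RefSeq annotation of GRCm38.p6, Cdkn1a (Entrez gene 12575) lies at chr17:29090979-29100722, Gadd45b (17873) at chr10:80930091-80932204 and Trp53inp1 (60599) at chr4:11156441-11174379. The annotated genes span 9744, 2114 and 17939 bases. RefSeq promoters, from 250 bases before to 50 bases after a transcription start, were found for 2 of the 3 genes. They are those of Cdkn1a and Gadd45b, which were both higher after each treatment, while no Trp53inp1 promoter was found. The upstream Cdkn1a promoter carries a p53 element, the textbook link of Cdkn1a to p53. All the promoters shown lie on the plus strand. The first is at chr17:29090729-29091028, with capitals for a full p53 site. The second, for the downstream Cdkn1a start, is at chr17:29093519-29093818, with capitals for GC boxes and the TATA motif. The third is at chr10:80929841-80930140, with capitals for an E-box, a GC box read on the minus strand, CCAAT boxes and the TATA motif.
Cdkn1a, upstream start: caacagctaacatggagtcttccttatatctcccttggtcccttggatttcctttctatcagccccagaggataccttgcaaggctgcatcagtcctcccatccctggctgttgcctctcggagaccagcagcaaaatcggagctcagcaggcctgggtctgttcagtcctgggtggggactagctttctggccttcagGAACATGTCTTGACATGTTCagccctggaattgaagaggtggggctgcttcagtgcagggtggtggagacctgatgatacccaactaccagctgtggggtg
Cdkn1a, downstream start: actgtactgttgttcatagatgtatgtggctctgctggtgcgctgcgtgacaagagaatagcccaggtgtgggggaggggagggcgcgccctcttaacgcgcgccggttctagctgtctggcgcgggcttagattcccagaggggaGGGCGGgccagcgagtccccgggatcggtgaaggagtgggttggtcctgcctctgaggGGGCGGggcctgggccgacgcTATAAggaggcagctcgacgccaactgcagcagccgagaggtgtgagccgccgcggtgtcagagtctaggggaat
Gadd45b: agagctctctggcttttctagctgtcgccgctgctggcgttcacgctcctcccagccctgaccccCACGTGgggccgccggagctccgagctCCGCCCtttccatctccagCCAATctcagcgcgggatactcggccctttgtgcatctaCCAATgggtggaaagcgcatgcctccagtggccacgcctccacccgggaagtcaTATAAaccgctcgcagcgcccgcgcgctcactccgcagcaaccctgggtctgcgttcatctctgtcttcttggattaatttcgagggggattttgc

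The p53 site occupied chr17:29090928-29090947, from base -51 to base -32 of the upstream Cdkn1a start and 2822 bases before the downstream start. It consists of 2 adjoining half-sites of 10 bases. The search rule, which required both half-site cores to be exact and allowed 1 other mismatch, was set with this sequence in view. By that rule 18 of 32807 mouse promoters (0.0549%) held a full site, and neither the downstream Cdkn1a promoter nor the Gadd45b promoter did. Of the 30 measured p53 target genes described below, 24 had a promoter in the table and 1 of these, Gtse1, held a full site. Gtse1, which encodes a regulator of p53, is named here after its match was seen.

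The upstream Cdkn1a promoter also held a lone p53 half-site at base -73, a motif found in 8.36% of promoters, and TATAA on the minus strand at -227. On either strand, GGGCGG was found in 35.6% of all promoters, CCAAT in 37.4%, TATAA in 24.9% and CACGTG in 7.15%. The Gadd45b promoter had CACGTG at base -185, the GC box at -158, CCAAT at -139 and -100, and TATAA at -46. The downstream Cdkn1a promoter had GC boxes at -104 and -46 and TATAA at -25. The CArG box of serum response factor (1.63% of promoters), the CRE letters TGACGTCA (1.79%) and the AP-1 letters TGANTCA (7.82%) had no match in these windows. A match says only that the letters are present.

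**Figure D1:**
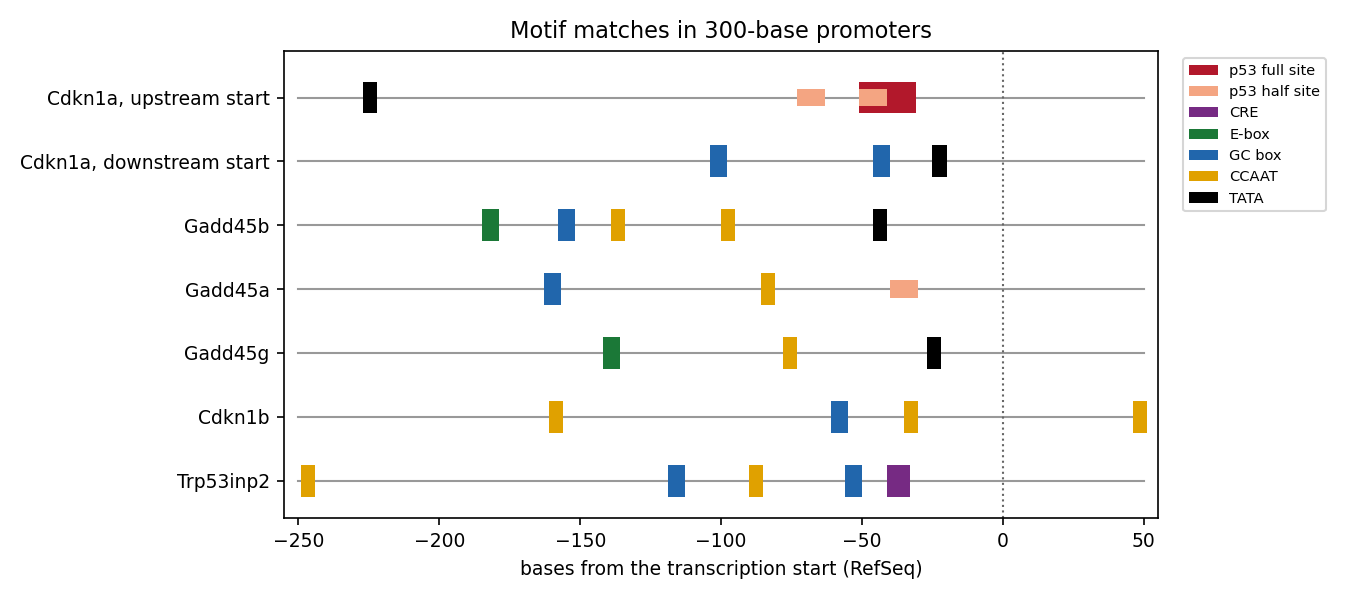
Motif matches on either strand in 300-base RefSeq promoters, one row per promoter, with position in bases from the transcription start on the x axis. The full p53 site sits between bases -51 and -32 of the upstream Cdkn1a start; the relatives Gadd45a, Gadd45g, Cdkn1b and Trp53inp2 are drawn for comparison.

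After 6 h of sleep deprivation all 3 genes were higher in cortex, Cdkn1a by far the most. Cdkn1a had a log2 signal of 8.79, 8.69 and 8.93 in the sleep-deprived pools, against 7.88, 7.89 and 8.01 in the control pools. The lowest sleep-deprived pool lay well above the highest control pool. The difference was 0.87 ± 0.068 (SE, n = 3 pools per group), or 1.83-fold, the 7th highest of all 14807 genes.

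Gadd45b had 7.80, 7.86 and 7.66 in the sleep-deprived pools, against 7.57, 7.57 and 7.41 in the control pools. Its groups did not overlap either, but the gap was small. The difference was 0.26 ± 0.080 (SE), or 1.20-fold. Trp53inp1 had 7.46, 7.39 and 7.37 in the sleep-deprived pools, against 7.26, 7.21 and 7.12 in the control pools. Again every sleep-deprived pool was above every control pool, with a difference of 0.21 ± 0.048 (SE), or 1.15-fold. By size of difference Gadd45b was the 446th highest gene and Trp53inp1 the 691st.

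All 3 genes had groups that did not overlap and were higher, as did 7.68% of all genes (11.1% were apart and lower). Cdkn1a alone of the 3 passed an adjusted p of 0.05 in limma's fit, which 1.63% of all genes passed and 0.723% passed as higher. The comparison had been used to choose the genes, so nothing is read from these counts. Of the cell type markers, 1 of 6 oligodendrocyte genes and 1 of 9 microglial genes passed the test: Opalin, an oligodendrocyte gene, fell by 0.84 (SE 0.063, limma adjusted p = 0.0017), and Trem2, a microglial receptor, fell by 0.32 (SE 0.044, limma adjusted p = 0.016). The mean of the 6 oligodendrocyte markers was 9.84 to 9.89 in sleep-deprived pools and 9.95 to 10.05 in control pools. The other oligodendrocyte genes lay on both sides of 0, such as Mobp at 0.23 and Mag at -0.14. The mean of the 9 microglial markers was 7.87 to 8.0 in sleep-deprived pools and 7.9 to 7.99 in control pools, with 5 of 9 above 0. The 7 pericyte and fibroblast markers had 0 calls but all lay below 0, with a median of -0.11 and means of 7.43 to 7.49 in sleep-deprived and 7.52 to 7.63 in control pools. The part of these markers in the values of the 3 genes was not tested.

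**Figure D2:**
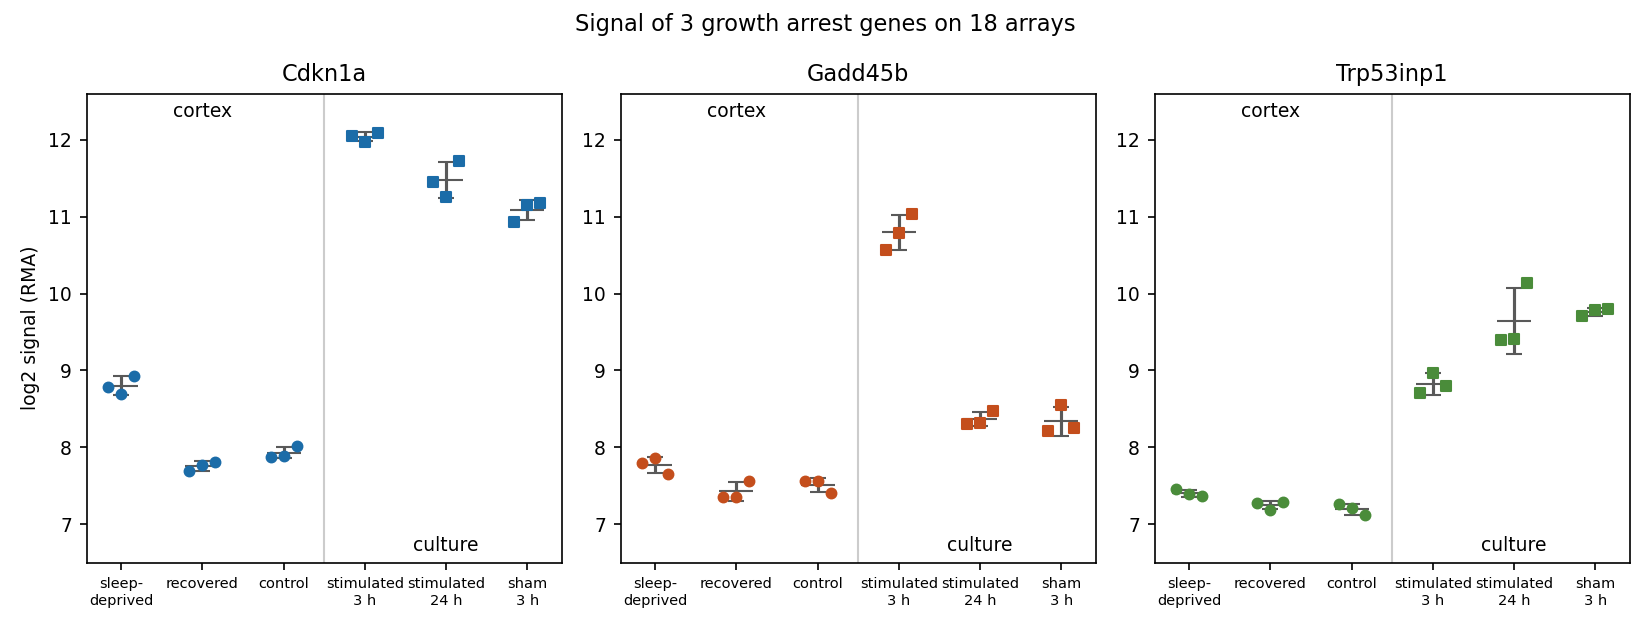
Log2 signal of Cdkn1a, Gadd45b and Trp53inp1 on each of the 18 arrays (points: circles for cortex pools, squares for culture dishes), with the group mean and SD (n = 3) as bars. Cdkn1a and Gadd45b are highest in their system in the sleep-deprived pools and in the dishes 3 h after stimulation, while Trp53inp1 is at its culture low in those dishes.

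After recovery all 3 genes were lower than straight after sleep deprivation. By the design text recovered pools were taken at the clock time when deprivation had started, not when it ended. Time of day and recovery cannot be told apart here. Cdkn1a had 7.69, 7.77 and 7.81 in the recovered pools, below every sleep-deprived pool, with a difference of -1.04 ± 0.068 (SE) that was the 6th lowest of all genes. Gadd45b had 7.36, 7.36 and 7.57, with a difference from sleep-deprived pools of -0.34 ± 0.080. Trp53inp1 had 7.27, 7.19 and 7.29, with a difference of -0.16 ± 0.048. None of the 3 overlapped with its sleep-deprived pools, as was so for 7.92% of all genes in the lower direction. Cdkn1a was past the threshold here, with 2.26% of all genes (0.790% as lower and 1.47% as higher). This comparison and the one against controls share the sleep-deprived pools, so their differences are not independent. Opalin rose by 0.81 (SE 0.063, limma adjusted p = 0.0015) and Trem2 by 0.30 (SE 0.044, limma adjusted p = 0.017) beside them, and the pericyte and fibroblast markers averaged 7.53 to 7.59 in recovered pools. The part of these markers was not tested.

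Recovered and control pools differed little. The clock time of the control pools is not given here. Sleep-deprived and recovered pools were taken at different clock times, so the same controls cannot match both. A difference from control cortex, after deprivation or after recovery, can therefore include time of day, which was not tested. Cdkn1a was 0.17 ± 0.068 lower in recovered than in control cortex, and its groups did not overlap, which held for 1.83% of all genes in that direction and 3.49% in the other. Gadd45b differed by -0.085 ± 0.080 and Trp53inp1 by 0.051 ± 0.048, with overlapping groups. In limma's fit 0 of 14807 genes passed an adjusted p of 0.05 between recovered and control cortex, where 427 had an unadjusted p under 0.05 and the smallest adjusted p was 0.096.

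In culture the 3 genes did not move together. Gadd45b had the largest difference of the 3, with 10.57, 10.78 and 11.03 in the dishes 3 h after stimulation, against 8.21, 8.55 and 8.26 in the sham dishes. No stimulated dish came near a sham dish. The difference was 2.46 ± 0.135 (SE, n = 3 dishes per group), or 5.48-fold, the 12th highest of all genes.

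Cdkn1a had 12.05, 11.97 and 12.09 in the stimulated dishes, against 10.93, 11.15 and 11.18 in the sham dishes. The groups were apart, with a difference of 0.95 ± 0.12, or 1.94-fold, close in size to the difference in cortex. Trp53inp1 had 8.70, 8.97 and 8.79 in the stimulated dishes, against 9.71, 9.78 and 9.80 in the sham dishes. It was the gene of the 3 that was lower after stimulation, by -0.94 ± 0.19 on the log2 scale, the 14th lowest value of all genes and a 1.92-fold reduction. Every stimulated dish lay below every sham dish.

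Of the 3 genes, Cdkn1a and Gadd45b were past the threshold and higher, and Trp53inp1 was not past it. Of all genes 1.45% were past it, 0.898% as higher. The fit pools the spread of all culture groups, including the dishes at 24 h. For Trp53inp1 the SD was 0.427 at 24 h, against 0.137 in stimulated and 0.049 in sham dishes. Trp53inp1 was past the threshold in 5 of 12 alternative fits, including the fit of only the 6 arrays compared. Groups did not overlap for 6.94% of all genes as higher and for 14.4% as lower. Cdkn1a was no longer past the threshold without stimulated dish 1 or 3 or without sham dish 1, 2 or 3, with differences of 0.876 to 0.997 over the 6 omissions. Dishes were also paired by the replicate numbers of their titles, since same-number dishes deviated together (correlations of 0.202 to 0.552). The planned fit and its errors do not use this pairing. The same-number differences between stimulated and sham dishes were 1.12, 0.82 and 0.92 for Cdkn1a. They were 2.36, 2.23 and 2.77 for Gadd45b. For Trp53inp1 they were -1.002, -0.810 and -1.002, so the 3 pairs had the same sign for each gene.

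Neurofilament light chain Nefl, a neuron marker, rose by 1.09 (SE 0.13, limma adjusted p = 0.014) and Pdgfrb, a pericyte receptor, fell by 0.89 (SE 0.097, limma adjusted p = 0.011) in the stimulated dishes. The other 6 pericyte and fibroblast markers did not pass, 3 of the 7 lay above 0, and the list averaged 6.35 to 6.71 in stimulated and 6.46 to 6.97 in sham dishes. The 9 neuron markers averaged 12.21 to 12.34 in stimulated dishes and 11.94 to 12.14 in sham dishes, and the 6 astrocyte markers 9.76 to 10.19 in stimulated and 9.86 to 10.53 in sham dishes. The part of these shifts in the values of the 3 genes was not tested.

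**Figure D3:**
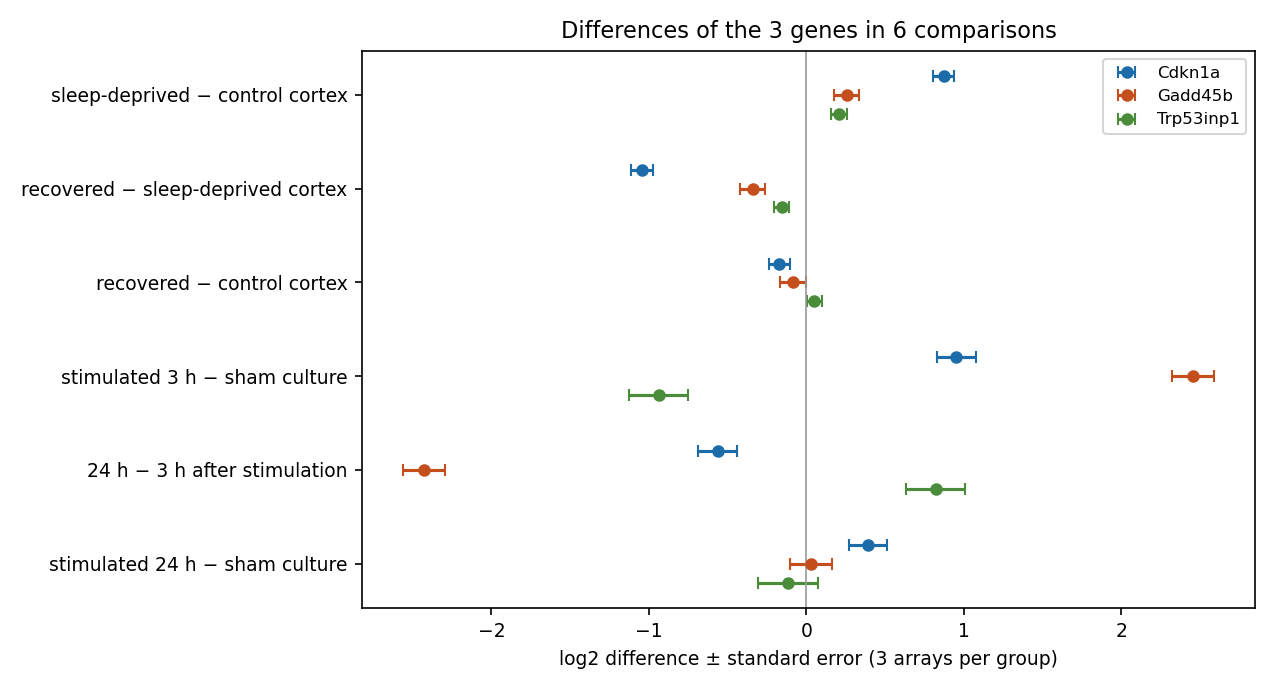
Log2 difference with its standard error for each gene in the 6 comparisons (3 arrays per group). All 3 genes lie above 0 in sleep-deprived minus control cortex, whereas stimulated minus sham culture runs from -0.94 for Trp53inp1 to 2.46 for Gadd45b.

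At 24 h after stimulation the 3 genes again differed. Gadd45b had 8.30, 8.32 and 8.48, against 10.57, 10.78 and 11.03 at 3 h. Its difference of -2.43 ± 0.135 was the 4th lowest of all genes. It was past the threshold, as were 0.331% of all genes (0.250% as lower). The 24 h dishes overlapped with the sham dishes, with a difference of 0.028 ± 0.135, which is 1.1% of the difference at 3 h.

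Cdkn1a had 11.45, 11.26 and 11.72 at 24 h, between the stimulated and the sham dishes and overlapping with neither. It was -0.56 ± 0.12 from the 3 h dishes and 0.39 ± 0.12 from the sham dishes, which is 41.1% of the difference at 3 h. Without dish 3 of the 24 h group the differences were -0.68, past the threshold, and 0.27. The same-number differences from sham dishes were 0.520, 0.105 and 0.547. The sham dishes were collected at 3 h, so stimulation and longer time in culture cannot be told apart in these values. Groups not overlapping as lower at 24 h than at 3 h made up 5.32% of all genes, and those higher at 24 h than in sham dishes 3.38%.

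Trp53inp1 had 9.39, 9.41 and 10.14 at 24 h, above each of the 3 h dishes, which 10.0% of all genes also were. The difference of Trp53inp1 from the 3 h dishes was 0.82 ± 0.19, the 28th highest of all genes, and that from the sham dishes was -0.12 ± 0.19, with overlapping groups. The spread rested on dish 3, which had the highest astrocyte and dividing-cell markers of the 24 h group. Without it the difference from the 3 h dishes was 0.58 and that from the sham dishes -0.36.

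Some marker lists lay mostly above 0 at 24 h against 3 h. Of the dividing-cell markers 10 of 10 lay above 0 (median 0.27), of the oligodendrocyte precursor markers 5 of 5 (0.24) and of the astrocyte markers 5 of 6 (0.34), with 0 calls in these lists and a median of 0.031 for all genes. Against sham dishes the dividing-cell markers were also 10 of 10 above 0, with a median of 0.26. The dividing-cell means of dishes 1, 2 and 3 were 8.34, 8.37 and 8.88 at 24 h and 7.99, 8.42 and 8.32 at 3 h. Those of the sham dishes were 8.03, 8.42 and 8.35, so dish 2 was not higher at 24 h. The precursor means were 9.84, 10.15 and 9.77 at 24 h and 9.86, 10.04 and 9.25 at 3 h. Both lists differed most for dish 3, and medians without it were not taken. Pdgfrb rose by 0.77 against the 3 h dishes (SE 0.097, limma adjusted p = 0.029), in a list with a median of 0.007. The part of these markers in the values of the 3 genes was not tested. Between 24 h and sham dishes 0 of 14807 genes passed limma's adjusted p of 0.05, where 877 had an unadjusted p under 0.05 and the smallest adjusted p was 0.37.

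The 2 systems were set against each other in 1 model of all 18 arrays, in which 2.07% of all genes differed in response between culture and cortex. The response of Cdkn1a differed by 0.081 ± 0.145 (culture minus cortex, SE), and by -0.009 after quantile normalization of all arrays. That of Gadd45b was 2.20 ± 0.16 larger in culture (2.01 after quantile normalization). That of Trp53inp1 was -1.15 ± 0.205 apart, lying below 0 in culture and above 0 in cortex, with -1.08 after quantile normalization. The 19 genes that rose in both systems included Cdkn1a, which was chosen on these values. They made up 17.8% of the 107 genes that rose after sleep deprivation, beside 0.898% of all genes that rose after stimulation. They made up 14.3% of the 133 that rose after stimulation, beside 0.723% of all genes that rose after sleep deprivation. Trp53inp1 was among 145 genes whose arrays did not overlap, higher in sleep-deprived cortex and lower in stimulated culture. They made up 12.8% of the genes apart and higher in cortex, beside 14.4% of all genes apart and lower in culture. They made up 6.8% of the genes apart and lower in culture, beside 7.68% of all genes apart and higher in cortex. Neither share of these 145 genes exceeded that of all genes, so nothing is read from their count.

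The order of levels across the 6 groups also set the genes apart. For Cdkn1a it ran from dishes 3 h after stimulation (12.04 ± 0.060, SD, n = 3) through dishes at 24 h (11.48 ± 0.23), sham dishes (11.09 ± 0.13), sleep-deprived cortex (8.80 ± 0.12) and control cortex (7.93 ± 0.074) to recovered cortex (7.76 ± 0.061). No neighbours in that order overlapped. For Gadd45b the order was stimulated dishes (10.80 ± 0.23), dishes at 24 h (8.37 ± 0.095), sham dishes (8.34 ± 0.19), sleep-deprived cortex (7.77 ± 0.10), control cortex (7.51 ± 0.094) and recovered cortex (7.43 ± 0.12). The 24 h and sham dishes overlapped, and so did control and recovered cortex. For Trp53inp1 the order was sham dishes (9.76 ± 0.049), dishes at 24 h (9.65 ± 0.43), stimulated dishes (8.82 ± 0.14), sleep-deprived cortex (7.40 ± 0.046), recovered cortex (7.25 ± 0.055) and control cortex (7.20 ± 0.071). Here the sham and 24 h dishes overlapped, and likewise recovered and control cortex.

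Untreated cultures carried more signal of all 3 genes than untreated cortex. Sham dishes exceeded control cortex by 3.16 ± 0.10 for Cdkn1a, 0.83 ± 0.115 for Gadd45b and 2.56 ± 0.145 for Trp53inp1 (log2 ± SE). After quantile normalization these were 2.33, 0.165 and 1.85, so the size for Gadd45b depended on the scaling. In that contrast 76.2% of all genes differed, 9028 higher and 2259 lower with a median of 0.50, against 5069 higher and 4431 lower with a median of 0.034 after quantile normalization. The 10 dividing-cell markers all rose in cultures under both scalings, with medians of 2.81 and 2.53, and their part in the levels was not tested. The level of Cdkn1a was above that of 97.9% of genes in stimulated dishes and 92.6% in sham dishes, against 76.3% in sleep-deprived and 60.4% in control cortex. These ranks compare probe sets that bind unequally, so they place a gene only roughly.

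Other genes of the same pathways were counted from 8 lists that leave out the 3 genes. After sleep deprivation 0 members of any list passed limma's adjusted p of 0.05 against control cortex. The p53 target genes had a median difference of 0.022 with 21 of 30 above 0, beside -0.0027 for all genes. The 2 with the smallest p were Plk3, a stress-responsive polo-like kinase, at 0.26 ± 0.072 (limma adjusted p = 0.15) and Rprm, a G2 arrest gene, at -0.23 ± 0.068 (limma adjusted p = 0.17). Mdm2, the ligase that degrades p53 and is itself a p53 target, was at 0.065 ± 0.064. The gene Trp53 itself was not analysed here.

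No close relative passed the test in cortex. The Gadd45 relatives Gadd45a and Gadd45g were 0.29 ± 0.11 and 0.11 ± 0.079 from control (limma adjusted p = 0.29 and 0.63), and the p21 relatives Cdkn1b (p27) and Cdkn1c (p57) were at -0.066 ± 0.071 and -0.006 ± 0.027. Among G1 genes, cyclin D1 (Ccnd1) came closest, at 0.22 ± 0.041 with a limma adjusted p of 0.051. The 6 measured cyclin-dependent kinase inhibitors had a median of -0.044 with 1 above 0, the lowest of the 8 list medians, and the 14 genes of DNA methylation and demethylation had the highest, 0.023.

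Between recovered and sleep-deprived cortex 2 of 17 G1 genes passed the test, both higher after recovery, beside 1.47% of all genes as higher. Ccne2, which encodes cyclin E2, rose by 0.34 ± 0.068 (limma adjusted p = 0.0494), with 6.70 to 6.87 in recovered and 6.43 to 6.46 in sleep-deprived pools. E2f1, a transcription factor of S-phase entry, rose by 0.21 ± 0.042 (limma adjusted p = 0.0497), with 8.38 to 8.45 in recovered and 8.14 to 8.27 in sleep-deprived pools. Each passed in 3 of 12 alternative fits and in none of the 6 that leave out a pool. The remaining 7 lists had 0 calls, and the p53 targets a median of -0.007 beside 0.012 for all genes. Against control cortex 0 members of the 8 lists passed after recovery.

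After stimulation of cultures 1 member of the 8 lists rose, beside 0.898% of all genes. It was 1 of 16 measured FoxO factors and growth arrest relatives, and nothing is read from that count. Klf4, a transcription factor that arrests the cell cycle through p21 in other cells, had 8.01, 7.97 and 8.72 in stimulated dishes, against 6.78, 6.62 and 6.52 in sham dishes. It rose by 1.59 ± 0.20 (limma adjusted p = 0.015), and lost the call without sham dish 1, 2 or 3 (adjusted p = 0.061 to 0.078). At 24 h Klf4 fell by 1.67 ± 0.20 against the 3 h dishes (limma adjusted p = 0.027), to a mean of 6.56, and lost the call without 24 h dish 1 or 2 or stimulated dish 1 or 2, and with the 6 arrays compared alone (adjusted p = 0.16). No other listed gene passed at 24 h against 3 h, where 0.331% of all genes passed (0.250% as lower). There the p53 targets had a median of 0.049 with 18 of 30 above 0, beside 0.031 for all genes. Against sham dishes 0 listed genes passed at 24 h.

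The p53 targets had a median of -0.069 after stimulation, with 12 of 30 above 0, beside -0.030 for all genes, and 0 passed the test. With the replicate number as a block, 2 of the 30 passed, beside 358 of all 14807 genes (2.42%): Plk2 (0.91, limma adjusted p = 0.031) and Plk3 (0.97, limma adjusted p = 0.034), both polo-like kinases. Under the block Btg1, an antiproliferative gene (0.68, limma adjusted p = 0.033), and Tet2, which oxidises 5-methylcytosine (0.55, limma adjusted p = 0.038), also passed. Btg2, another antiproliferative p53 target, was at 1.03 ± 0.24 (limma adjusted p = 0.087 without the block) and Mdm2 at -0.072 ± 0.12.

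**Figure D4:**
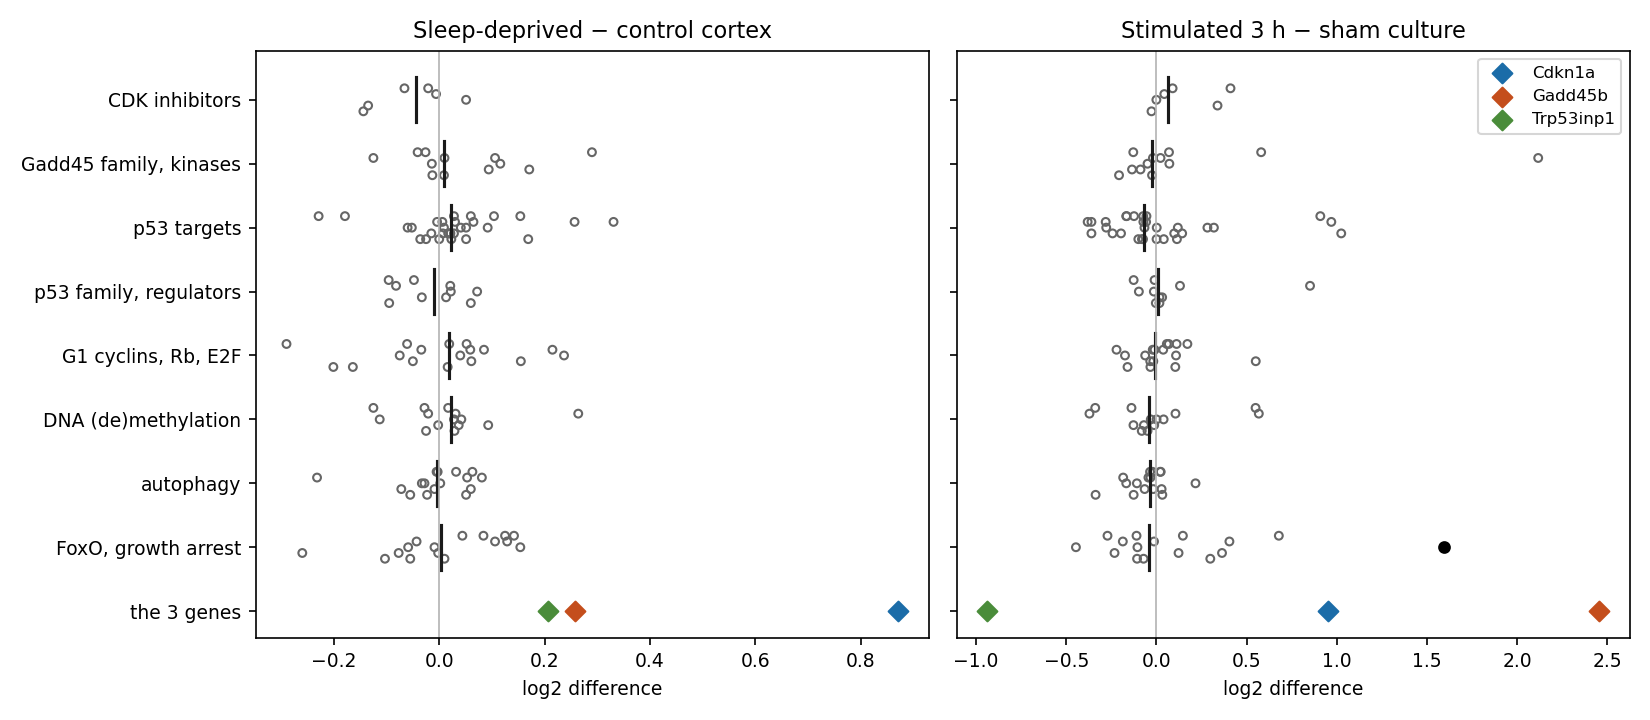
Log2 differences of the listed genes (open circles), with black lines for list medians and filled circles for genes past limma's adjusted p of 0.05, and of the 3 growth arrest genes (diamonds), for sleep-deprived minus control cortex (left) and stimulated minus sham culture (right; the x scales differ). List medians lie near 0 in both, and the filled circle is Klf4.

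Gadd45g ran beside Gadd45b in culture but varied more. It had a mean of 10.28 ± 0.55 (SD) in stimulated dishes and 8.16 ± 0.27 in sham dishes, a difference of 2.12 ± 0.59 (SE) with a limma adjusted p of 0.14. The same-number differences were 1.88, 1.78 and 2.69. At 24 h dish 3 still had 10.44, and the difference from the 3 h dishes was -1.37 ± 0.59, or -2.14 and past the threshold without that dish. Gadd45a was at 0.58 ± 0.17 and Cdkn1b at 0.41 ± 0.14 after stimulation (limma adjusted p = 0.16 and 0.24). Trp53inp2, the relative of Trp53inp1 with a role in autophagy, was at 0.28 ± 0.079 (limma adjusted p = 0.14), above 0 where Trp53inp1 lay below. The 16 autophagy genes had a median of -0.034 and 0 calls after stimulation.

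The nearest genes were found by the root mean square gap over 4 differences. These were sleep-deprived and recovered cortex against control, and dishes at 3 h and 24 h against sham. The gap weighs the size of the differences and not only their direction. Since neighbours were picked on these 4 differences, their likeness to a member in them follows from the choice. Nearest to Cdkn1a were Dusp4 (0.184), Dio2 (0.199), Dusp6 (0.216) and Homer1 (0.236), which encode a MAP kinase phosphatase, a thyroid hormone deiodinase, another MAP kinase phosphatase and a postsynaptic scaffold. Nearest to Gadd45b were Npas4 (0.225), a neuronal activity-dependent transcription factor, then Gprc5a (0.274), Tbc1d1 (0.293) and Cwc25 (0.293). Nearest to Trp53inp1 were Dnajc28 (0.063), Lrtm2 (0.120), Crebl2 (0.122) and Ttc26 (0.123).

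None of the 3 genes was among the 4 nearest of another. Cdkn1a and Gadd45b were 0.83 apart, Cdkn1a and Trp53inp1 1.04, and Gadd45b and Trp53inp1 1.70. Seen from Gadd45b, Cdkn1a was the 187th nearest gene, whereas seen from Cdkn1a, Gadd45b was the 13645th nearest. The gap is not scaled, so a gene with hardly any difference lies nearer to Cdkn1a than Gadd45b does. These ranks thus do not say that the courses of Cdkn1a and Gadd45b differ in direction. Dusp4 differed by 0.80 in sleep-deprived cortex and by 1.17 in stimulated culture, beside 0.87 and 0.95 for Cdkn1a. Npas4 differed by 0.22 and 2.17, beside 0.26 and 2.46 for Gadd45b. Dnajc28 differed by 0.11 and -0.95, beside 0.21 and -0.94 for Trp53inp1.

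**Figure D5:**
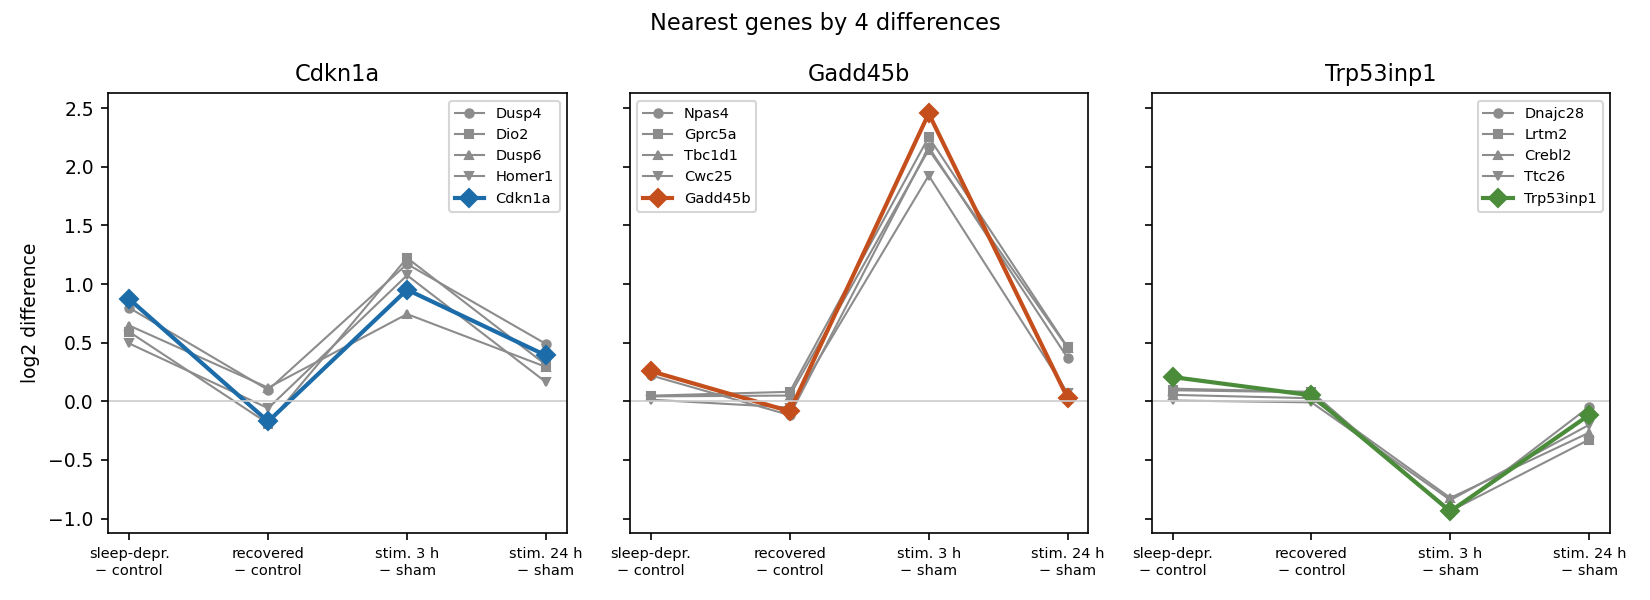
Log2 differences of each growth arrest gene (coloured diamonds) and of its 4 nearest genes (grey) in the 4 differences used for likeness. Cdkn1a and its neighbours lie above 0 after both treatments, Gadd45b and its neighbours peak at 3 h in culture, and Trp53inp1 and its neighbours dip there. The neighbours were picked on these differences, so the likeness follows from the choice.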

How the data were processed

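Values were taken from the deposited table of 23238 probe sets on 18 Affymetrix arrays, which the authors made as log2 values with RMA (background correction, normalization and probe summary), per the submitters' processing notes. The sources used here give neither its version nor whether cortex and culture were normalized together. Column medians were 6.87 to 7.09, and precision is limited by the number of arrays.

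Of the probe sets, 14939 had 1 symbol in the platform annotation, 989 several and 7310 none. By Entrez ID, 14884 matched RefSeq (GRCm38.p6), with 0 symbols changed. For 131 genes with several probe sets, the one with the highest mean was kept, leaving 14807 genes with no filter. Differences were fitted with limma 3.58.1 in R 4.3.3 (lmFit, eBayes, two-sided, Benjamini-Hochberg over all genes), on the 9 arrays of each system, and checked on simulated data. "Rose" and "fell" mean an adjusted p under 0.05. The members and lists were chosen with earlier results of these data known. Named list genes are those past the test, else the 2 with the smallest p, and close relatives.

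Same-number culture dishes deviated together (correlations of 0.202 to 0.552 over 9 pairs), so the block is given where it changed a call; in cortex they did not (-0.102 to 0.101). Promoters and coordinates come from RefSeq tables of GRCm38.p6.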

Additional observations from a re-analysis of the deposited data

Results flagged for a closer look

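Responses that differed between culture and cortex in the 18-array model stood out for 3 genes. The response of Gadd45b (stimulated minus sham in culture, minus sleep-deprived minus control in cortex) differed by 2.20 on the log2 scale, and the change after it (24 h minus 3 h in culture, minus recovered minus sleep-deprived in cortex) by -2.08. For Trp53inp1 these were -1.15 and 0.98. Both genes were chosen with their courses known, so these are descriptions. For Klf4, a listed growth arrest relative, they were 1.44 (limma adjusted p = 0.0082) and -1.40 (limma adjusted p = 0.014), in which 2.07% and 1.01% of all genes passed.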

How the results depend on the processing

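The differences of the 3 genes kept their direction in 36 of 36 values under the 2 scalings (quantile normalization, and arrays scaled to a common standard deviation), and 5 moved by more than the replicate spread. Against sleep-deprived cortex, recovered Cdkn1a was at -1.19 after quantile normalization and -1.14 after scaling, and Trp53inp1 at -0.22 after quantile normalization. Stimulated against sham Trp53inp1 was at -0.82 after quantile normalization, and Gadd45b at 24 h against 3 h at -2.25 after scaling. With single arrays left out, 103 of 108 differences kept their direction; the exceptions were Gadd45b and Trp53inp1 at 24 h against sham, whose ranges were -0.038 to 0.14 and -0.36 to 0.010.

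Sleep-deprived against control cortex, 241 genes passed in the planned fit, against 140 with the replicate block (numbers do not pair the pools), 31 with all 18 arrays, 94 with the 6 arrays compared, 811 with array weights and 72 to 182 with single arrays left out. Recovered against sleep-deprived cortex, 334 passed, against 596 without dim genes, 190 with the block, 42 with all 18 arrays, 182 with 6 arrays, 774 with array weights and 104 to 215 with single arrays left out. Recovered against control, 1 passed without dim genes and 1 with array weights. Stimulated against sham, 215 passed, against 358 with the block, 1170 with all 18 arrays, 910 with array weights and 18 to 72 with single dishes left out. At 24 h against 3 h, 49 passed, against 98 after quantile normalization, 74 without dim genes, 150 with the block, 872 with all 18 arrays, 1 with 6 arrays, 2829 with array weights and 1 to 82 with single dishes left out. At 24 h against sham, 0 passed, against 64 with all 18 arrays, 958 with array weights and 0 to 1 with single dishes left out.

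Of the p53 targets, 0 passed in any planned fit or with any single array left out. After sleep deprivation 2 passed with array weights. Recovered against sleep-deprived, 1 passed without dim genes and 2 with array weights. After stimulation 1 passed after quantile normalization, 1 without dim genes, 2 with the replicate block, 5 with all 18 arrays, 2 with 6 arrays and 5 with array weights. At 24 h against 3 h, 5 passed with all 18 arrays and 8 with array weights, and at 24 h against sham 1 and 3. After stimulation the count of all genes given above was also higher with the block (2.42% of all genes), all 18 arrays and array weights. Counts of all genes under most of the other settings are given above, but their shares were not taken. Nothing is read from these list counts. The cause of the moves in these counts was not tested.

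The replicate block put none of the 3 genes on the other side of the threshold, but other settings did. After stimulation Trp53inp1 was past it in 5 of 12 alternative fits and Cdkn1a in 7. Trp53inp1 was past it in 2 after sleep deprivation, and Gadd45b in 3 between recovered and sleep-deprived cortex. At 24 h against 3 h Cdkn1a was past it in 3 and Trp53inp1 in 2, and against sham each in 1. Array weights did not fully converge in some fits. The mean over several probe sets of a gene was not run, since each of the 3 has 1. With 3 arrays per group and no detection calls, small differences such as those after recovery could not be resolved.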
